A study of Mus musculus with 6 samples.

Results

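The genes described here are 10 mouse genes that build MHC class I molecules and supply them with peptides: B2m, H2-K1, H2-D1, Tap1, Tapbp, Psmb8, Psmb9, Psme1, Psme2 and Nlrc5. They were listed by name, as genes of known function, out of 21000 protein-coding genes of the RefSeq annotation. A peak of p65 ChIP–seq was assigned to a gene when the transcription start site nearest to the middle of the peak was its own, and peaks with their middle within 50 kb of a start site of the 10 genes were described as well. In ChIP–seq, DNA fragments brought down by an antibody against a chromatin protein are sequenced, and p65 (RelA) is a DNA-binding subunit of NF-κB.

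The series holds 6 samples from epidermal cells of C57bl/6J mice, of which 3 are p65 libraries with a list of peaks and 3 are inputs that were not analysed here. Adult mice were untreated and 17 to 25 weeks old. Aged mice, 80 to 90 weeks old when the cells were taken, had received from 73 weeks of age either a control IgG (aged/control IgG) or antibodies against both IL-17A and IL-17F (aged/anti-IL-17A/F), in each case for 12 weeks. Per the methods, some aged animals were home-bred and others were bought as retired female breeders. The reads of 4 mice were merged for each condition before peaks were called, so that every condition is 1 list, the differences between mice are not in the data, and no test between conditions could be made. The cells were all those released from the epidermis by trypsin, a mixture of keratinocytes and resident immune cells, in which fewer cells with p65 at a site and less p65 in each cell cannot be told apart.

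MHC class I molecules display peptides from inside the cell to CD8 T cells. H2-K1 and H2-D1 encode classical heavy chains and B2m the light chain that pairs with them. Psmb8 and Psmb9 are catalytic subunits of the immunoproteasome, Psme1 and Psme2 form the PA28 activator that docks on proteasomes, Tap1 is one chain of the transporter that carries peptides into the endoplasmic reticulum, and Tapbp (tapasin) holds empty class I molecules at that transporter. Nlrc5 is the transcriptional activator of this gene set. Promoters of class I genes are textbook targets of NF-κB and of interferon-induced factors.

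The lists held 8525 peaks in adult, 4169 in aged/control IgG and 6014 in aged/anti-IL-17A/F. For each peak the deposited fold enrichment and p-value together fix the number of fragments at the summit, the highest point of the peak, and a whole number gave back the p-value within 0.001 on the −log10 scale for 100% of peaks in every list. The median was 61, 61 and 63 fragments in adult, aged/control IgG and aged/anti-IL-17A/F, and the commonest local background was 13.42, 13.07 and 13.55 fragments, a ratio of 1.04 between the highest and the lowest pool. All intervals below are 95% intervals for counting error only. One feature of the files bears on every comparison with adult: all 8525 peak names of the adult list began with the word Treated, as did all 6014 of aged/anti-IL-17A/F and 0 of aged/control IgG. The labels were followed, and the ratios between lists are also given below with these 2 lists exchanged. Peaks were assigned to 6 of 6 keratinocyte markers in adult, 4 in aged/control IgG and 5 in aged/anti-IL-17A/F, to 1, 2 and 1 of 6 leukocyte markers, to 0 of 3 melanocyte markers in each list and to 1, 0 and 1 of 3 fibroblast markers. A p65 peak is not a measure of expression, so these counts do not give the make-up of the cells, and its part in the results was not tested.

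Peaks were assigned to 6 of the 10 genes in each list, and they were the same 6 genes: B2m, H2-K1, H2-D1, Tap1, Tapbp and Psme2. Among all protein-coding genes, 23% had an assigned peak in adult, 12.9% in aged/control IgG, 17.4% in aged/anti-IL-17A/F, 11.4% in all 3 lists and 25.1% in at least 1. Psmb8, Psmb9, Psme1 and Nlrc5 had no assigned peak in any list. When every start site within 1 kb of the middle of a peak was counted, Psmb9 was added and the count was 7 of 10 in each list, against 15.0%, 6.62% and 9.66% of all genes. A peak among the strongest 10% of its list was assigned to 5 of the 10 genes in adult, 2 in aged/control IgG and 4 in aged/anti-IL-17A/F, against 3.24%, 1.58% and 2.30% of all genes, and H2-D1 and Tapbp held such a peak in all 3 lists. Ranked by −log10 q instead, the counts were 5, 4 and 4, against 3.20%, 1.60% and 2.30% of all genes, with B2m and H2-K1 added in aged/control IgG. Within 50 kb of a start site there was a peak for 10, 9 and 10 of the 10 genes, against 43.4%, 27.5% and 35.0%, the exception being Nlrc5 in aged/control IgG. These genes are not independent of each other, since 6 of them lie on chromosome 17 in the MHC region and neighbours there share peaks.

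**Figure D1:**
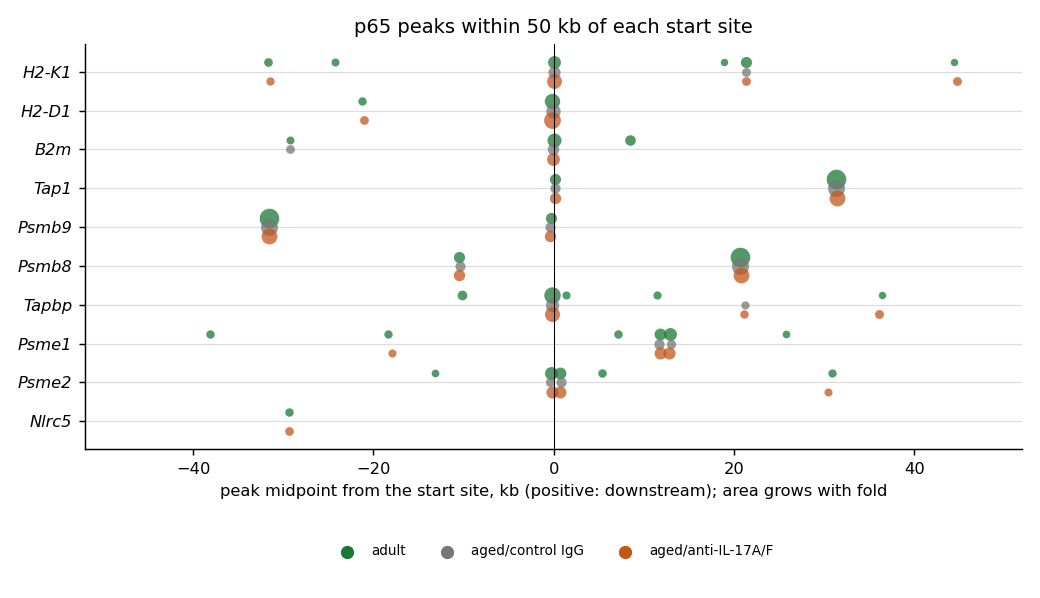
Distance in kb from the start site of each of the 10 genes (rows) to the middle of every p65 peak within 50 kb, with positive values downstream in the direction of transcription, the 3 lists in 3 colours and a point area that grows with fold enrichment. Peaks at the start site appear in all 3 lists for B2m, H2-K1, H2-D1, Tap1, Tapbp and Psme2, the Psmb9 row repeats the Tap1 peaks, and most other points are small and from the adult list.

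The heavy chain genes carried their strongest signal just upstream of the start site. The H2-K1 peak (chr17:33999821-34000874 over the 3 lists, mm10, promoter and first exons of a gene on the minus strand) had a fold enrichment of 7.81 in adult, 6.83 in aged/control IgG and 10.6 in aged/anti-IL-17A/F. Its rank by fold enrichment was 668 of 8525, 447 of 4169 and 167 of 6014. The H2-D1 peak (chr17:35262421-35263463, promoter and start of the gene on the plus strand) had a fold enrichment of 11.4, 9.87 and 13.7 in the same order, at ranks 198, 112 and 50. At H2-K1 the summit held 205 fragments in adult (178 to 235), 125 in aged/control IgG (104 to 149) and 181 in aged/anti-IL-17A/F (156 to 209). At H2-D1 it held 245 (215 to 278), 161 (137 to 188) and 217 (189 to 248). At both genes the aged/control IgG count was the lowest and its interval lay below the intervals of the other two pools.

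A match to the NF-κB consensus lay beside the summit of both heavy chain genes, and these sequences are shown because the sites were among the strongest of the class I genes. Both are given 5′ to 3′ in the direction of transcription, from GRCm38 (mm10), with the consensus match in capitals, at chr17:34000423-34000483 on the minus strand and chr17:35262898-35262958 on the plus strand.
H2-K1 promoter: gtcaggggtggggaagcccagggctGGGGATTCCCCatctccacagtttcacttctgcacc
H2-D1 promoter: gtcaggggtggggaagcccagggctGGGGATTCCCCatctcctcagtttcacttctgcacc
The 11 capital letters hold overlapping matches in both orientations. They covered positions −111 to −101 from the H2-K1 start site and −171 to −161 from that of H2-D1, and the summits lay 11 to 12 bp from the nearest match at H2-K1 and 14 to 71 bp from it at H2-D1. Over the 61 bases shown, the windows differed at 1 position, A43T, counted from 1 at the 5′ end with the H2-K1 base first. The same 11 bases lay within 100 bp of the summit of 37 peaks in adult, 26 in aged/control IgG and 34 in aged/anti-IL-17A/F, 0.434%, 0.624% and 0.565% of each list, and in 9 of 27025 RefSeq promoter windows (250 bases before to 50 after the start). Over the wider 211 bases around the match, H2-K1 and H2-D1 were 81.5% identical. Reads of such paralogs can be placed at the wrong copy. Of the 50-base stretches of the peaks, as long as the reads, 5.27% at H2-K1 and 3.22% at H2-D1 occurred more than once on chromosome 17 without a mismatch, and 0% of those near the summits did. With up to 2 mismatches, which the alignment of the authors allowed, the shares were 29.0% and 29.6% over the peaks and 22.5% and 20.1% near the summits. The fragments at H2-K1 and H2-D1 are therefore uncertain to an extent that was not tested.

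**Figure D2:**
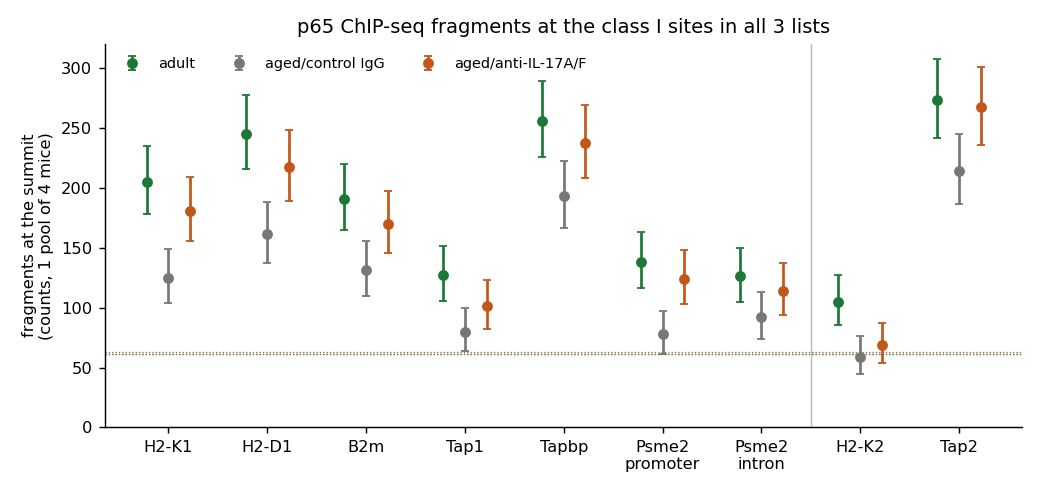
Fragments at the summit (counts, vertical axis) of the 7 sites assigned to class I genes and, right of the vertical line, the H2-K2 and Tap2 sites, for the 3 pools of 4 mice, with bars for exact Poisson 95% intervals and dotted lines for the median of all peaks of a list. At each of the 7 sites the adult pool is highest, aged/anti-IL-17A/F next and aged/control IgG lowest, for example 245, 217 and 161 fragments at H2-D1.

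B2m carried a promoter peak in every list (chr2:122147147-122148265). Its summit lay upstream of the B2m start, in an annotated intron of the overlapping gene Patl2 on the other strand. The fold enrichment was 9.35 in adult, 6.18 in aged/control IgG and 7.79 in aged/anti-IL-17A/F, at ranks 396, 578 and 448. The summit held 191 fragments (165 to 220), 131 (110 to 155) and 170 (145 to 198). The aged/control IgG value was thus the lowest on both scales, and its interval overlapped that of aged/anti-IL-17A/F and not that of adult. Beside the NF-κB match the B2m promoter held the core of an interferon-stimulated response element (ISRE), taken as GAAANNGAAA. The window chr2:122147530-122147588 on the plus strand is shown since it was the only one of the 9 promoter windows at hand for these genes with both motifs, with the ISRE core as the first and the NF-κB match, in reverse complement, as the second run of capitals.
B2m promoter: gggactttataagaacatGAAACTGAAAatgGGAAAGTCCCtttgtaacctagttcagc
The ISRE core covered positions −139 to −130 from the start site and the NF-κB match −126 to −117, and both lay within 76 bp of every summit. Both motifs were present in 69 of 27025 promoter windows, 0.255% (0.202% to 0.323%).

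Tap1 and Psmb9 are transcribed in opposite directions from start sites 226 bp apart, and each list had 1 peak there. The adult peak covered both starts (chr17:34187168-34188152), while that of aged/control IgG began 132 bp and that of aged/anti-IL-17A/F 42 bp from the Psmb9 start, towards Tap1. The middle of the peak was 104, 200 and 146 bp from the Tap1 start in adult, aged/control IgG and aged/anti-IL-17A/F, and 330, 426 and 372 bp from that of Psmb9, so it was counted for Tap1 alone although the distance does not tell which gene the p65 there serves. Its fold enrichment was 5.69, 4.63 and 6.00, at ranks 1494, 1289 and 944, in each list the lowest among the strongest assigned peaks of the 6 genes. The summit held 127 fragments (106 to 151), 80 (63.4 to 99.6) and 101 (82.3 to 123). It was the only one of the 7 assigned sites with no NF-κB consensus match within 100 bp of the summit, which says only that these letters are not in this window. It held an ISRE core, in capitals below in reverse complement, in the Tap1 5′ UTR at chr17:34187688-34187717 on the plus strand.
Tap1 and Psmb9: cgaggtcggcTTTCGGTTTCttcttcctct
The core covered positions 142 to 151 downstream of the Tap1 start and lay 95, 20 and 53 bp from the summits. Psmb8, the other immunoproteasome subunit on the list, had no peak at its promoter. The peak closest to its start site was this one, 10535, 10439 and 10493 bp away.

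Tapbp had the highest fold enrichment of the 6 genes in adult. Its peak (chr17:33918458-33920186) reached a fold enrichment of 13.1 in adult, 8.33 in aged/control IgG and 10.8 in aged/anti-IL-17A/F, at ranks 125, 230 and 151. The summit held 256 fragments (226 to 289), 193 (167 to 222) and 237 (208 to 269), the most fragments of the 7 sites in each pool. The intervals of aged/control IgG and adult did not overlap, and those of the 2 aged pools did. The summit lay in the Tapbp 5′ UTR, inside a non-coding exon of the overlapping gene Gm19412, and the NF-κB match there was 42, 13 and 19 bp from the summits. It is shown in capitals in the window chr17:33919591-33919620 on the plus strand.
Tapbp: gaccagatcgGGGAATTTCCagttcctcac
The match covered positions 123 to 132 downstream of the start site. A pair of overlapping ISRE cores followed at positions 157 to 172.

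Psme2 was the only one of the 10 genes with more than 1 assigned peak in a list, in adult and aged/anti-IL-17A/F, one at the promoter and one in an intron. The promoter site (chr14:55590678-55591987) lies between Psme2 on the minus strand and Rnf31, a component of the linear ubiquitin ligase complex, on the plus strand. Its fold enrichment was 7.90 in adult, 3.70 in aged/control IgG and 6.89 in aged/anti-IL-17A/F, at ranks 646, 2215 and 640, and its summit held 138 fragments (116 to 163), 78 (61.7 to 97.3) and 124 (103 to 148). Aged/control IgG stood apart from both other pools. In that list the middle of the peak was 424 bp from the Psme2 start and 217 bp from the Rnf31 start, so it was assigned to Rnf31 and not to Psme2. The intron site (chr14:55589966-55590579) had a fold enrichment of 6.50, 4.79 and 6.69, at ranks 1098, 1175 and 697, and 126 fragments (105 to 150), 92 (74.2 to 113) and 114 (94.0 to 137), with intervals that overlapped between all pools. Each site held 1 NF-κB match within 100 bp of the summits, shown on the minus strand from chr14:55591416-55591475 and chr14:55590232-55590291, with the match in capitals.
Psme2 promoter: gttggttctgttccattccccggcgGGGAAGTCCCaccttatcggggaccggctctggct
Psme2 intron: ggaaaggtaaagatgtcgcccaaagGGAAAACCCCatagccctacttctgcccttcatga
The promoter match covered positions −349 to −340 and the intron match positions 755 to 764 downstream of the start, both in reverse complement. The promoter match was 49, 82 and 33 bp from the summits and the intron match 29, 63 and 25 bp. Psme1, which encodes the partner subunit of PA28, had no peak at its promoter. The peak closest to its start was 7133 bp away in adult, at the neighbouring gene Emc9, and was the Psme2 intron site, 11731 and 11778 bp away, in the 2 aged lists.

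Nlrc5 had no assigned peak. A weak peak (chr8:94443255-94443660) was present 29298 bp upstream of its curated start in adult and 29330 bp upstream in the aged/anti-IL-17A/F list, with a fold enrichment of 3.004 and 3.23, ranks of 6319 and 3976 and 46 fragments (33.7 to 61.4) in both. In aged/control IgG the closest peak was 86201 bp away. Of all adult peaks of like strength (the list was split by fold enrichment into 10 equal classes), 17.5% overlapped an aged/control IgG peak. Why the peak was not called in aged/control IgG was not tested. RefSeq lists 6 transcripts of Nlrc5, of which 5 are predicted, and 4 of the 6 span the peak, 9116 and 9077 bp inside the nearest predicted start. The site is shown for its NF-κB match, 22 and 17 bp from the summits, at chr8:94443411-94443470 on the plus strand.
Nlrc5: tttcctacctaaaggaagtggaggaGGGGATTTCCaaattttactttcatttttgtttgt
With curated and predicted start sites together, the count of genes with an assigned peak was again 6 in each list, without Nlrc5. With start sites of protein-coding genes only, it was 7 in adult, 6 in aged/control IgG and 7 in aged/anti-IL-17A/F.

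**Figure D3:**
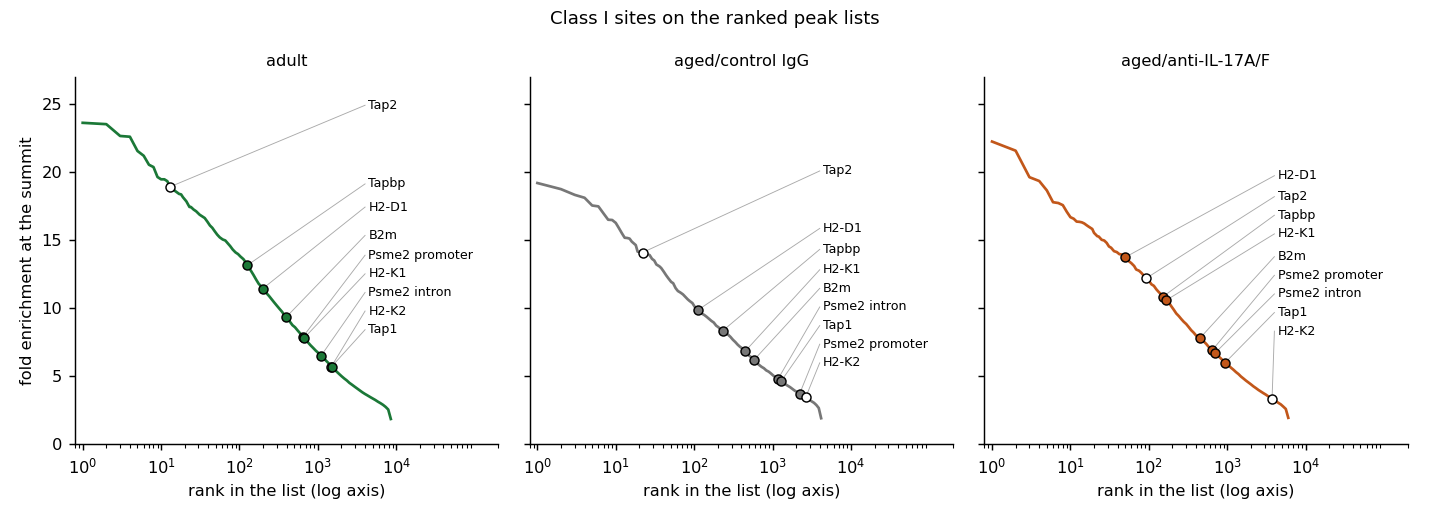
Fold enrichment (vertical axis) against rank in the list (horizontal log axis) for each list, with all peaks as a line, the 7 class I sites as filled points and the H2-K2 and Tap2 sites as open points. Tap2 stands at rank 13, 22 and 93, and the class I sites range from 125 to 1494 in adult, 112 to 2215 in aged/control IgG and 50 to 944 in the third list.

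The peak with the most fragments in reach of these genes, in each list, belonged to none of them by the nearest start site. It lay between Tap2, the second chain of the peptide transporter, and the class II gene H2-Ob (chr17:34218500-34219354), with its summit 2548 to 2574 bp beyond the 3′ end of Tap2 and its middle 20685 to 20738 bp from the Psmb8 start. The fold enrichment was 18.9 in adult, 14.1 in aged/control IgG and 12.2 in aged/anti-IL-17A/F, below that of H2-D1 in the last list, at ranks 13, 22 and 93, and the summit held 273 fragments (242 to 307), 214 (186 to 245) and 267 (236 to 301). The fall in rank in aged/anti-IL-17A/F came with a local background of 20.95 fragments, against 13.47 in adult and 14.25 in aged/control IgG. Within 113 bp of the summits the site held an NF-κB match, an ISRE core and a pair of gamma-activated sites (GAS, an element of interferon-γ responses, taken as TTCNNNGAA). In capitals they are, from the 5′ end, the NF-κB match (in reverse complement), a GAS and the ISRE core that overlap and form 1 run, and the other GAS, at chr17:34218768-34218984 on the plus strand.
Tap2: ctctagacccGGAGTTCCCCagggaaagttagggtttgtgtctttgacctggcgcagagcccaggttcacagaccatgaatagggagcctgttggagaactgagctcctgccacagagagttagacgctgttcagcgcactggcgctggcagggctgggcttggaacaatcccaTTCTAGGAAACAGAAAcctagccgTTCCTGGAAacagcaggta
Of the 9 sites of the region found in all 3 lists, 7 were the assigned ones and the other two were this one and H2-K2, a transcribed pseudogene of the heavy chain family with the middle of its peak 21329 to 21379 bp from the H2-K1 start. The H2-K2 site (chr17:33978745-33979263) held the same 11 bases as H2-K1 and H2-D1. Its fold enrichment was 5.71, 3.43 and 3.33, with 105 fragments (85.9 to 127), 59 (44.9 to 76.1) and 69 (53.7 to 87.3). Here both aged pools had fewer fragments than adult, and the interval of aged/anti-IL-17A/F narrowly overlapped that of adult.

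In all, the 3 lists held 26 sites assigned to the 10 genes or within 50 kb of them, of which 9 were in 3 lists, 6 in 2 and 11 in 1. Apart from the assigned sites and the Tap2 and H2-K2 sites, 10 were in adult only, nearest to Pck2, Dcaf11, Emc9, Irf9, Daxx, Gm19412, Rgl2, AA388235, Ring1 and Trim69. Adult and aged/anti-IL-17A/F shared 4, at Rxrb, Ddx39b, the Nlrc5 region and between Rps18 and Vps52. Adult and aged/control IgG shared 1 at Spg11, the aged lists shared 1 at Wdr46, and aged/anti-IL-17A/F alone had 1 at Dcaf11. The adult-only sites had a fold enrichment of 2.16 to 5.06 and 42 to 72 fragments. Of the 10, 8 lay between percentiles 0.880 and 29.9 of the adult list, where 12.4% to 17.5% of adult peaks of the same classes of strength overlapped an aged/control IgG peak and 26.8% to 34.2% an aged/anti-IL-17A/F peak. The Daxx site (4.16) lay at percentile 64.3, with shares of 54.9% and 75.3% in its class. The strongest, at Trim69 near B2m, lay at percentile 77.2, in a class of which 74.2% and 90.02% of peaks overlapped one in these aged lists, and held 72 fragments (56.3 to 90.7) and an NF-κB match 51 bp from its summit. Counted as peaks, the adult list had 24 at or near the class I genes, aged/control IgG 11 and aged/anti-IL-17A/F 15, which is 0.282%, 0.264% and 0.249% of all peaks of each list.

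Between conditions, p65 fragments at the 7 assigned sites were lower in aged/control IgG than in adult and in between in aged/anti-IL-17A/F, as at most sites present in the 3 lists. The ratio of aged/control IgG to adult was below 1 at 7 of 7 sites, from 0.565 at the Psme2 promoter (0.423 to 0.751) to 0.754 at Tapbp (0.622 to 0.912), with a median of 0.657. Over all 3502 sites present in the 3 lists the median was 0.734 and 95.4% of ratios were below 1. H2-K1 had a ratio of 0.610 (0.484 to 0.765), Tap1 0.630 (0.470 to 0.840), H2-D1 0.657 (0.535 to 0.805), B2m 0.686 (0.545 to 0.861) and the Psme2 intron 0.730 (0.552 to 0.963). All 7 intervals lay below 1, and 0 of the 7 lay clear of the median of all sites. The Psme2 promoter stood nearest to the edge, with a lower ratio at only 4.74% of the 3502 sites, followed by H2-K1 with 12.5%.

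Aged/anti-IL-17A/F had more fragments than aged/control IgG at 7 of 7 sites, with a median ratio of 1.30 against 1.21 over all 3502 sites. Of all these sites, only 10.4% had a ratio below 1. The ratio was 1.59 at the Psme2 promoter (1.19 to 2.14), 1.45 at H2-K1 (1.15 to 1.83), 1.35 at H2-D1 (1.09 to 1.66), 1.30 at B2m (1.03 to 1.64) and 1.23 at Tapbp (1.01 to 1.49), all with intervals above 1. It was 1.26 at Tap1 (0.932 to 1.71) and 1.24 at the Psme2 intron (0.933 to 1.65), where the interval included 1. Again 0 of 7 intervals lay clear of the median of all sites. The Psme2 promoter exceeded 96.5% of all sites and H2-K1 88.3%. Both of these ratios have the same aged/control IgG count in them, so that the low ratio to adult and the high ratio to aged/control IgG at the Psme2 promoter are not separate observations. Compared with adult, aged/anti-IL-17A/F was below 1 at 7 of 7 sites, from 0.795 at Tap1 (0.606 to 1.04) to 0.926 at Tapbp (0.773 to 1.11), with a median of 0.890 against 0.889 over all sites, and every interval included 1. Of all 3502 sites, 76.7% were below 1 in this comparison. The lists of adult and aged/anti-IL-17A/F were also exchanged. That leaves the aged/control IgG list as it was, so aged/control IgG has the fewest fragments at each of the 7 sites by construction. Its ratio to adult would then have a median of 0.771 (range 0.629 to 0.814), with 5 of 7 intervals below 1, against a median of 0.824 over all sites, of which 87.6% would be below 1. The ratio of aged/anti-IL-17A/F to aged/control IgG would have a median of 1.52 (range 1.33 to 1.77), with 7 of 7 intervals above 1, against 1.36 over all sites, of which 4.20% would be below 1. The ratio of aged/anti-IL-17A/F to adult would lie above 1 at 7 of 7 sites instead of below it, with a median of 1.12 against 1.12 over all sites and 0 of 7 intervals clear of 1. Of all sites, 21.0% would then be below 1.

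**Figure D4:**
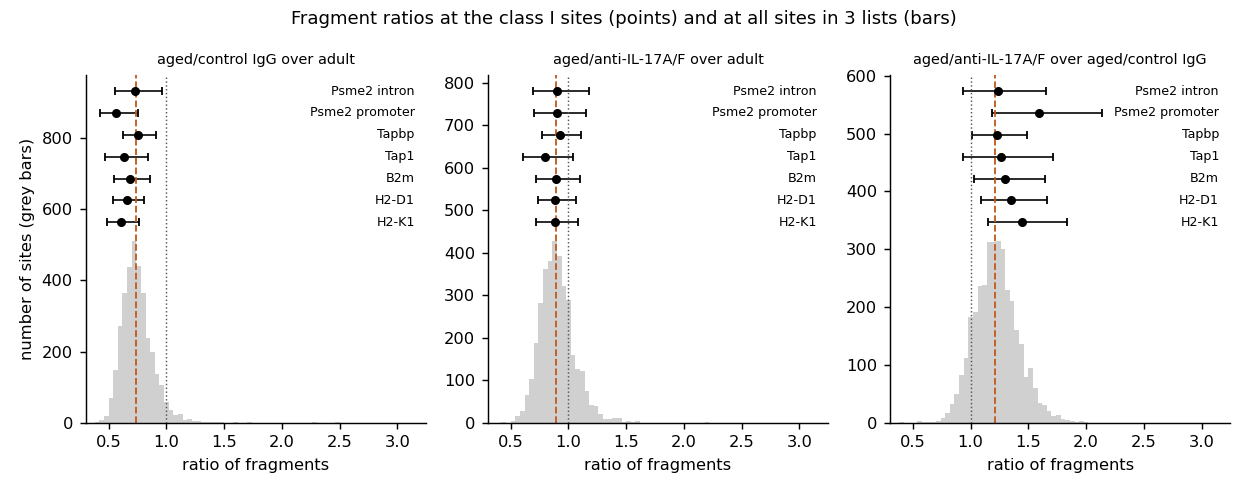
Ratio of summit fragments between pools at the 7 class I sites (points with 95% intervals for counting error) above the distribution over the 3502 sites found in all 3 lists (bars, number of sites), with a dashed line at the median of all sites and a dotted line at 1. The dashed lines stand at 0.734, 0.889 and 1.21 and cross the interval of every class I site.

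The deposited fold enrichment gave another order than the fragments at several of these genes. By fragments, the order was adult, aged/anti-IL-17A/F, aged/control IgG at 7 of 7 sites, the order of 65.1% of all 3502 sites. By fold enrichment that order held at 3 of 7, B2m, Tapbp and the Psme2 promoter, and at 39.2% of all sites, while at H2-K1, H2-D1, Tap1 and the Psme2 intron aged/anti-IL-17A/F came first. Aged/control IgG was lowest at 7 of 7 by both. The share of all sites at which it was the lowest of the 3 lists was not counted. By fragments, the ratio of aged/control IgG to adult was below 1 at 95.4% of all sites. The ratio of aged/anti-IL-17A/F to aged/control IgG was below 1 at 10.4%. By fold enrichment these shares were 79.98% and 33.2%. Fold enrichment divides by a local background, which was 25.4 fragments at H2-K1 in adult against 17.5 in aged/control IgG and 16.2 in aged/anti-IL-17A/F. At H2-D1 it was 20.5, 15.4 and 14.9 and at Tap1 21.5, 16.5 and 16.0. At Tapbp the adult pool had the lowest background, 18.6 against 22.3 and 20.95.

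**Figure D5:**
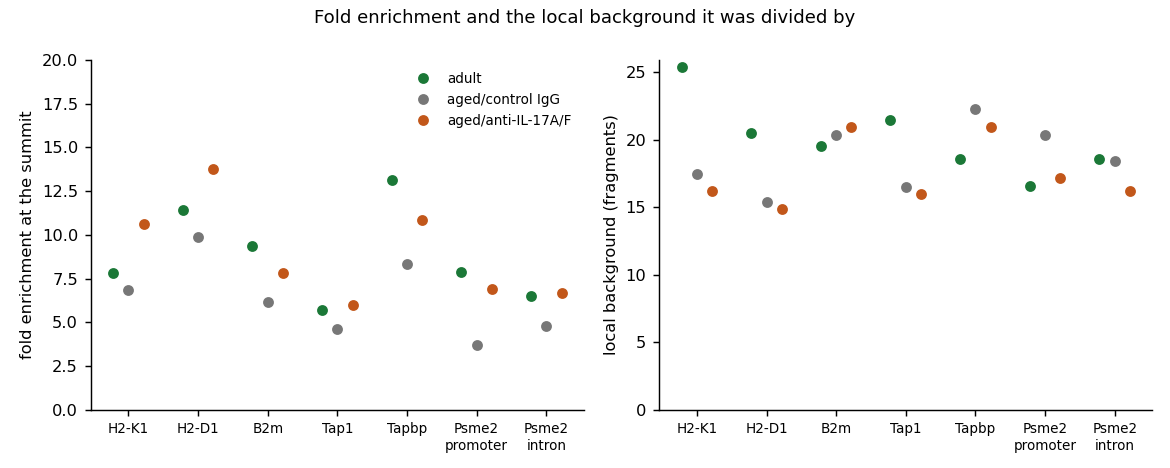
Fold enrichment (left) and the local background in fragments it was divided by (right) at the 7 class I sites in the 3 lists, each point 1 pool of 4 mice and without an error bar. At H2-K1 the adult background is 25.4 and the aged ones 17.5 and 16.2, and there the fold enrichment is highest in aged/anti-IL-17A/F at 10.6 although the fragments are not.

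Across the assigned peaks, an NF-κB match lay within 100 bp of the summit at 6 of 7 in adult, 5 of 6 in aged/control IgG and 6 of 7 in aged/anti-IL-17A/F, on either strand. Of all peaks 28.5%, 37.8% and 34.9% held one, of the strongest 10% of peaks 60.9%, 63.0% and 62.7%, and of windows 2000 bp to either side 2.18%, 1.96% and 2.26%. Within 100 bp of the summit, the ISRE core was present at 3 of these peaks in each list, at B2m, Tap1 and Tapbp, and at 1.75%, 1.97% and 2.19% of all peaks. Farther from the summit, the Psme2 promoter peak held one in adult and aged/anti-IL-17A/F, 75 to 84 bp downstream of the start. The GAS was present within 100 bp of the summit at 0 of them, and at 5.91%, 6.64% and 6.14% of all peaks. Farther from the summit, the H2-K1 and H2-D1 peaks held a GAS in each list. In the RefSeq promoter windows of 9 of the 10 genes, B2m, H2-K1 and H2-D1 held an NF-κB match, as did 5.14% of 27025 windows. B2m and Psme1 held an ISRE core (3.99% of windows) and Psmb8 a GAS (9.55%).

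Other genes of the pathway were taken as 4 lists with 62 protein-coding genes in the annotation, of which 28 had an assigned peak in adult, 17 in aged/control IgG and 24 in aged/anti-IL-17A/F. All 3 lists had one for 17 genes, and no list had one for 33. These shares stand beside the 23%, 12.9% and 17.4% of all genes, without a test. Of 13 genes for class I assembly and peptide supply, 7, 3 and 7 had a peak. Tap2, the tapasin homologue Tapbpl and the chaperone Hspa5 had one in all 3 lists. Tapbpl, with a fold enrichment of 4.58, 4.12 and 4.04, and Hspa5, with 4.18, 3.52 and 3.70, were much weaker than Tap2. The chaperone Calr (3.29 and 2.74) and the proteasome gene Psmb6 (3.32 and 3.08) had one in adult and aged/anti-IL-17A/F. So did the proteasome gene Psme3 (5.05 and 3.21, at places that differ). The disulfide isomerase Pdia3 (2.43) had one in adult only and the immunoproteasome subunit Psmb10 (3.27) in aged/anti-IL-17A/F only. None of these genes had one in aged/control IgG. In the adult class of strength of Calr and Psmb6, 23.005% of peaks overlapped an aged/control IgG peak. This share was 13.4% in the class of Pdia3 and 74.2% in that of Psme3. For Psmb10, taken from its class in the list with blocked IL-17A/F, it was 36.4%. Why these peaks were not called in aged/control IgG was not tested.

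Of 17 further class I heavy chain genes, 6 had a peak in adult, 3 in aged/control IgG and 4 in aged/anti-IL-17A/F. H2-Q4, a non-classical heavy chain, had a fold enrichment of 10.7, 11.8 and 7.84, H2-M2 of 7.42, 4.63 and 9.0004 and H2-Q7 of 6.89, 5.05 and 4.33. H2-Q4 was thus first of these in adult and aged/control IgG and H2-M2 in aged/anti-IL-17A/F. By fragments H2-Q4 was first in all 3 lists, with 219, 165 and 186, against 106, 80 and 130 at H2-M2 and 154, 102 and 123 at H2-Q7. Each of these had an NF-κB match within 100 bp of the summit in every list. H2-T10, a transcribed pseudogene in this annotation, had a fold enrichment of 8.67, 4.41 and 8.18. H2-Q6 was present in adult and aged/anti-IL-17A/F (3.71 and 3.40), and H2-T23 (4.37) and H2-T24 (3.19) in adult only. The 11 bases of H2-K1 and H2-D1 lay within 100 bp of the H2-Q6 summit in adult. Whether reads at these close relatives were placed at the wrong copy was not tested.

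Of 19 regulators, 11, 9 and 9 had a peak, 9 of them in all 3 lists. Irf1, which binds ISREs, had a promoter peak with a fold enrichment of 11.4 in adult, 8.71 in aged/control IgG and 10.7 in aged/anti-IL-17A/F, and the values below are in the same order. Creb1 (10.6, 6.58 and 6.29) and Rfx5 (7.63, 5.27 and 9.04) encode parts of the protein complex with which Nlrc5 works, and Nfya, a further part, had a peak in adult (7.77) whose counterparts in aged/control IgG (5.28) and aged/anti-IL-17A/F (5.90) were nearest to Oard1. Rfxap, Rfxank, Nfyb and Nfyc, other parts of it among the regulators, had no assigned peak in any list. The interferon-γ receptor genes Ifngr1 (8.38, 7.04 and 6.98) and Ifngr2 (6.19, 6.33 and 7.90), the kinases Jak1 (7.16, 4.48 and 6.80, at another place in aged/control IgG) and Jak2 (6.67, 6.47 and 6.57) and Irf2 (5.20, 4.12 and 4.88) had a peak in all 3 lists. Irf9 had a peak in adult only (2.39).

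Class II molecules present peptides from outside the cell and are expressed by Langerhans cells. Of 13 genes of the class II pathway, 4, 2 and 4 had a peak, against 23%, 12.9% and 17.4% of all genes. H2-Ab1 had a fold enrichment of 8.18 in adult, 4.92 in aged/control IgG and 5.57 in aged/anti-IL-17A/F, and H2-Aa held 111, 65 and 83 fragments. The invariant chain gene Cd74 (4.27 and 3.37) and Ifi30, a lysosomal thiol reductase (3.81 and 2.78), were in adult and aged/anti-IL-17A/F. Over the 4 lists, 12 genes had an assigned peak in some lists and not in others, and apart from Nfya no peak overlapped their strongest site in the lists without one. A peak in some lists only was common among all genes. Of 21000 protein-coding genes, 5275 had an assigned peak in at least 1 list and 2388 in all 3.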

How the data were processed

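p65 ChIP–seq was analysed in epidermal cells of 3 groups of mice, 1 list of peaks each. According to the methods, the authors trimmed 50-base single-end reads (Trimmomatic 0.36), aligned them to mm10 with BWA, merged 4 mice per condition, removed duplicates, downsampled the pools to a common number of reads and called peaks with MACS2 (q value of 0.01, extension size of 300 bp). Whether the inputs entered peak calling is not stated. The deposited columns were position, a score, the fold enrichment (the ratio of fragments to background), the −log10 p-value, the −log10 q-value and the summit. Merging hides the differences between mice, and downsampling does not remove differences in immunoprecipitation.

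From these, each peak was assigned to the nearest start site of curated RefSeq transcripts (GRCm38). Fragments were recovered as the whole pileup k for which (k + 1)/(background + 1) gives the fold enrichment and the Poisson tail the p-value, with exact Poisson intervals and, for ratios, exact conditional intervals. Shares have Wilson intervals. Sites are peaks that overlap by at least 1 bp. Motifs were searched on both strands in the genome, and 9 of 10 genes matched the RefSeq promoter table, Nlrc5 being the exception. The 10 genes and the lists were chosen with earlier results of these data known. All 10 genes are named, with every gene of the lists that had a peak, and values for those of highest fold enrichment and those present in some lists. One of the regulators is counted but not reported here by name. Alternatives were stricter −log10 q thresholds, other windows, start sites, overlaps and motif windows, equal numbers of peaks and ranks by −log10 q. Counting every start site within 1 kb, ranking the strongest 10% by −log10 q, allowing 2 mismatches in repeats and exchanging the lists of adult and aged/anti-IL-17A/F were added after the data were seen. Steps were tested on simulated data. Python 3.11.15, numpy 2.4.6, pandas 2.3.3, scipy 1.17.1, pysam 0.24.0 and matplotlib 3.10.9 were used.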

Additional observations from a re-analysis of the deposited data

How the results depend on the processing

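Of 60 alternatives of the counts of genes, sites and matches, 57 stayed within 1.5 times the reported count. Some of them could not change. The equal number of peaks, 4169, is the length of the aged/control IgG list, and exchanging the other lists leaves that list as it was. With 50 bp instead of 100 bp to either side of the summit, an NF-κB match was found at 3 assigned peaks in adult (6 with 100 bp) and at 3 in aged/control IgG (5 with 100 bp), by construction of the narrower window. Ranked by −log10 q, an alternative added after the data were seen, 4 genes had a peak among the strongest 10% in aged/control IgG (2 by fold enrichment). With the lists labelled aged/anti-IL-17A/F and adult exchanged, likewise added after the data were seen, the median fragment ratio at the 7 assigned sites went from 0.657 to 0.771 for aged/control IgG over adult, from 1.30 to 1.52 for aged/anti-IL-17A/F over aged/control IgG, and from 0.890 to 1.12 for aged/anti-IL-17A/F over adult, which reverses its direction. Percentiles of the strongest peak of each gene ranked by −log10 q instead of fold enrichment differed from the reported ones by −0.565 to 6.12 points, within 72.3 to 99.0 against 69.0 to 99.2. No paired analysis was possible because each condition is 1 pool of 4 mice, so that no replicates can be matched or left out. The depth of the pools limits what is seen at weak sites, where the absence of a peak from a list is not the absence of p65.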
